A study of Mus musculus with 163 samples.

Results

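Fully grown oocytes (FGOs) from induced pluripotent stem cells were compared with FGOs from embryonic gonads, gene by gene. The iPSC-derived set was every FGO whose source label named BVSC-iPSC, and the gonad-derived set was every FGO whose label named an embryonic gonad at E12.5, a mid-gestation embryonic age. Each set held 24 oocytes, so the comparison used 48 of the 163 single mouse oocytes in the series. Per the labels each oocyte was freed of follicle cells and of its zona pellucida and sequenced on its own by Smart-seq2, a full-length protocol for polyadenylated RNA. The series also held growing oocytes (GROs) and reference FGOs, 20 grown in vivo and 24 from follicles that were isolated at 6 dpp (days post partum) and grown in culture.

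BVSC-iPSC is 1 female mouse line made from adult tail tip fibroblasts, and it carries Blimp1-Venus and Stella-ECFP transgenes that report Prdm1 and Dppa3. Per the methods its cells were turned into primordial germ cell-like cells (PGCLCs), which were sorted for both reporters. They were aggregated with gonadal somatic cells of E12.5 female embryos of outbred Swiss Webster mice, from which germ cells had been depleted. The paper saw some oocytes without Stella-ECFP in such aggregates and holds incomplete depletion to be the likely origin. No reporter check of the sequenced oocytes is stated, so the source is taken from the label. For the gonad-derived oocytes, E12.5 gonads were dissociated and re-aggregated whole, so the germ cells had formed in the embryo. Both kinds of reconstituted ovary (rOvary) received retinoic acid during aggregation. They then went through in vitro differentiation (IVD) with a period in fulvestrant, an estrogen receptor antagonist, and in vitro growth (IVG) of follicles with FSH and an early period in BMP15 and GDF9. The time in culture was not the same in both sources. The source of the germ cells, their genetic background and transgenes, the single line and the culture course therefore differed together and cannot be told apart. The labels named no animal, rOvary or culture behind an oocyte, so each group was taken as 1 sample, and no difference below has a replicate check or a test. The spread given is that between oocytes, and intervals are exact Poisson 95% intervals of reads summed over a group, which cover counting error only, because Smart-seq2 adds no molecular identifier and several reads may stem from 1 molecule.

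An oocyte grows inside its follicle while it stores transcripts and proteins for the embryo, and by the end of growth most of its transcription has stopped. It exchanges signals with granulosa cells throughout, through oocyte ligands such as GDF9 and BMP15, through the receptor KIT and its granulosa ligand KITL, and through gap junctions. Much earlier, as a germ cell, it was specified, lost most of its DNA methylation and entered meiotic prophase, in which it stays arrested while it grows.

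Sequencing depth was close in both sets. Totals ran from 3.99 to 7.78 M reads per iPSC-derived oocyte (median 7.06 M, where M is 1000000 reads) and from 2.17 to 8.15 M per gonad-derived oocyte (median 7.04 M). The lowest were gonad-derived oocytes 5 and 22, with 2.17 and 2.91 M reads. Gonad-derived oocyte 19 stood apart: 1790 genes were at least 4-fold below the median of the other oocytes of its group, where the next highest oocyte had 69. Among the iPSC-derived, oocyte 13 had 233 genes that far below and oocyte 14 had 235 that far above, and gonad-derived oocyte 18 had 298 that far above, the most of all 48. All of them entered the values below, and results that rest on any of them are given without them too. Oocyte identity was checked on 15 markers with a row in the table. All 15 were measured in both sets, and their summed level was 20081 to 31488 CPM (reads per 1000000 counted reads) over iPSC-derived oocytes and 23213 to 36424 CPM over gonad-derived ones. The 13 granulosa cell markers summed to between 239 and 438 CPM in iPSC-derived and 273 to 422 CPM in gonad-derived oocytes, mostly Esr2 and Cyp19a1, while Amh was at 0.0060 and 0.043 CPM and Amhr2 at 0 and 0.037 CPM. Of 7 blood markers 2 passed the expression filter described next, Cd68 and Pecam1, and Ptprc, Hbb-bs and Lyz2 did not.

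Most transcripts were at like levels in both sets. Of 13582 genes with a CPM above 1 in at least 3 of the 92 FGOs of all sources, 94.1% differed by less than 2-fold in pooled CPM, the reads of a group summed and divided by its summed library. Ratios are log2 of pooled CPM + 0.5 in iPSC-derived over gonad-derived oocytes, which understates the difference of low genes, and their median was -0.08. At 4-fold, 57 genes were higher in iPSC-derived oocytes (0.42% of tested genes) and 36 were lower (0.265%). At 2-fold, 297 were higher (2.19%) and 508 were lower (3.74%), so lower genes were the more numerous at 2-fold and the fewer at 4-fold. For 38 genes every iPSC-derived oocyte lay above every gonad-derived oocyte (0.28%), and for 25 every iPSC-derived oocyte lay below (0.184%). Of the 38, 16 were 4-fold or more apart and 11 less than 2-fold, and of the 25, 4 were 4-fold or more apart and 9 less than 2-fold. Without gonad-derived oocyte 19 the 25 became 44. Such counts without overlap can only stay or rise when oocytes are left out. Pooled values can rest on few oocytes, and 41 of the 57 higher and 16 of the 36 lower genes were past 4-fold also in the ratio of median CPM and with any single oocyte left out.

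**Figure D1:**
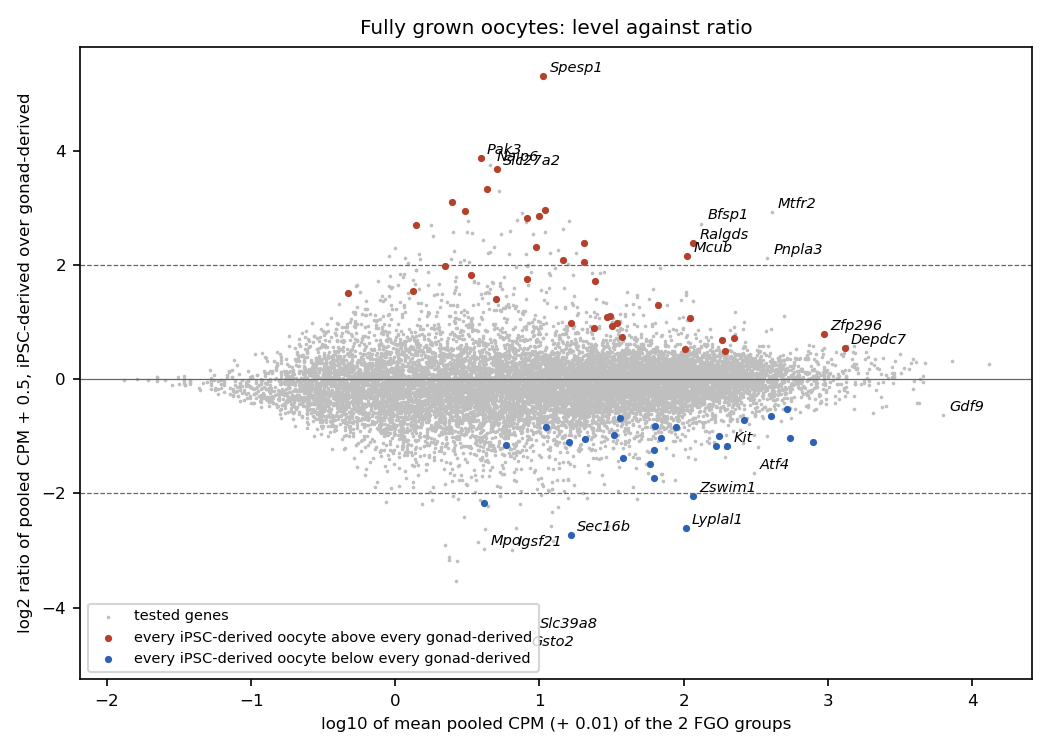
Each point is 1 of 13582 tested genes, with the log10 of its mean pooled CPM on the horizontal axis and the log2 ratio of iPSC-derived over gonad-derived FGOs on the vertical axis; dashed lines mark 4-fold. Red points are the 38 genes for which every iPSC-derived oocyte lay above every gonad-derived one and blue points the 25 for which every one lay below, with Spesp1 at a ratio of 5.32 and Sec16b at -2.73 the most extreme of each.

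The promoters of 4 genes are printed because they carry the clearest patterns described below. Spesp1 and Lyplal1 were the most extreme and the second most extreme of the genes without overlap in each direction, and Bfsp1 and Pnpla3 were at high level in every iPSC-derived oocyte but in only 5 gonad-derived oocytes each, 4 of them the same. Each window runs from 250 bases before to 50 after the gene's start in RefSeq, on GRCm38.p6, read 5′ to 3′ on the gene's strand. CG dinucleotides, the sites of DNA methylation in mammals, are in capitals, and they read the same on both strands. The windows are chr9:62282130-62282429 (minus strand) for Spesp1, chr1:186117261-186117560 (minus) for Lyplal1, chr2:143863124-143863423 (minus) for Bfsp1 and chr15:84167566-84167865 (plus) for Pnpla3. The Bfsp1 window lies well within the gene's annotated span, which extends upstream to chr2:143915219. Which start is used in these oocytes was not tested, so the Bfsp1 window may not be the promoter in use. The annotated span of Pnpla3 also begins a little upstream of the start on which its window was built.
Spesp1: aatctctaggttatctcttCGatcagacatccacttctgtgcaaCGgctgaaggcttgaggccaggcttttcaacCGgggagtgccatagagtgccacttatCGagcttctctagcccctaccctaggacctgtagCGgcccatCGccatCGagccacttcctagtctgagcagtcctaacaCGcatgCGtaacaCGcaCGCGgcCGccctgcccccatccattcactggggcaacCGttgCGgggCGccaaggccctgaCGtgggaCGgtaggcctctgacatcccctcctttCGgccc
Lyplal1: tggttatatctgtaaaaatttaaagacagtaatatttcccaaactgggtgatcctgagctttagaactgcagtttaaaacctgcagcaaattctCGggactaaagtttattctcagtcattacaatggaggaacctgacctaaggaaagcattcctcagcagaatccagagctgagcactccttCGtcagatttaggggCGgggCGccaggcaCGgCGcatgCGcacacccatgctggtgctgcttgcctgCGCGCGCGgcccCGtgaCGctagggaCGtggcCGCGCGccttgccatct
Bfsp1: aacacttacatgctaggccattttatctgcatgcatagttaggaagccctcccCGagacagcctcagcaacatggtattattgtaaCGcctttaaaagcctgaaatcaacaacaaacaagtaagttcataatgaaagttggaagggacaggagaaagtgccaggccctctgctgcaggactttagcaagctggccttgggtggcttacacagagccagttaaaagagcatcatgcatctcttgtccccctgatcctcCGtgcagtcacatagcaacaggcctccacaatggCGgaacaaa
Pnpla3: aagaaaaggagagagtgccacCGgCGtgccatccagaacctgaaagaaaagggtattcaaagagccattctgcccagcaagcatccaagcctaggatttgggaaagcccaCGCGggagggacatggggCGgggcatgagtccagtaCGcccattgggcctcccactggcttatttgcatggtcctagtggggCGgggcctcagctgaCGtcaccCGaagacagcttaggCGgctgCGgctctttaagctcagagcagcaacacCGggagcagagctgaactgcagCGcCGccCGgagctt
The Spesp1 window held 19 CG and the Lyplal1 window 17, and 50.8% and 56.9% of the 10681 promoter windows of tested genes held as many or more. Pnpla3 had 15, with 62.2% holding as many or more, and Bfsp1 had 4, with 89.6%. The Bfsp1 window was thus the CG-poorest of the 4 windows. No methylation was measured in these oocytes here.

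The largest ratio was that of Spesp1, which encodes a protein of the equatorial segment of sperm. Its gene lies at chr9:62270729-62282179 on GRCm38, the build of all coordinates here. It was measured at 4.20 to 41.5 CPM over iPSC-derived oocytes (median 20.5) and at 0 to 0.301 CPM over gonad-derived ones (median 0), where 7 reads were counted in the whole group. Every iPSC-derived oocyte was therefore above every gonad-derived one. Pooled values were 21.2 CPM (95% interval 20.5 to 21.9) and 0.0431 CPM (0.0173 to 0.0888), a log2 ratio of 5.32. The 6 dpp and in vivo FGOs were as low as the gonad-derived, at 0.0251 and 0.0483 CPM.

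Other genes were likewise at or near 0 in most gonad-derived oocytes. Pak3, an X-linked kinase that acts downstream of the GTPases RAC and CDC42, was at 4.86 to 20.0 CPM (median 7.02) in iPSC-derived and at most 0.643 CPM (median 0) in gonad-derived oocytes, a log2 ratio of 3.88. Slc27a2, which imports and activates very long-chain fatty acids, was at 4.78 to 15.6 CPM (median 10.0) against 0 to 1.96 CPM (median 0.068), a ratio of 3.69. Tnr, the extracellular matrix protein tenascin R of the nervous system, was at 1.71 to 8.09 CPM (median 4.49) against 0 to 1.03 CPM (median 0), a ratio of 3.11. In none of these genes did the sets overlap. Fam241a, whose function is little known, had a ratio of 3.34 from 1.33 to 13.9 CPM against 0 to 1.01 CPM. Manba, the lysosomal beta-mannosidase, was at 1.66 to 15.0 CPM against 0 to 1.38 CPM, a ratio of 2.95. Sis, the sucrase-isomaltase of the intestinal brush border, had 458 reads over the iPSC-derived and 0 over the gonad-derived oocytes, at least 149-fold higher against a floor of 3 reads in the group. Lancl3, an X-linked gene, had 328 reads against 0, at least 107-fold higher, although some iPSC-derived oocytes were at 0 CPM. Sis and Lancl3 were chosen after their values were seen.

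A further group was measured well above the floor in both sets and was higher in iPSC-derived oocytes without overlap. Tmem189, the desaturase that makes plasmalogens, was at 5.88 to 64.3 CPM (median 12.8) against 0.575 to 4.40 CPM (median 1.95), a log2 ratio of 2.96. Rccd1, an RCC1 domain protein, was at 7.17 to 23.4 CPM against 0.288 to 3.91 CPM, a ratio of 2.83. Mettl7a1 was at 3.43 to 25.5 CPM against 0.461 to 3.41 CPM, a ratio of 2.86, and as a gene with a close copy its level is uncertain. The following genes were chosen after their values were seen, for their level. Ralgds, an exchange factor that links RAS to RAL GTPases, was at 104 to 426 CPM (median 171) against 5.18 to 50.4 CPM (median 39.5), a ratio of 2.38, and the pooled levels of 6 dpp and in vivo FGOs, 41.6 and 38.1 CPM, were close to the gonad-derived level of 37.2 CPM. Mcub, the inhibitory subunit of the mitochondrial calcium uniporter, was at 136 to 204 CPM (median 174) against 28.8 to 58.8 CPM (median 37.7), a ratio of 2.15. The sets of Mcub values were separate by more than the range within either. At higher level still, the transcription factor Zfp296 was at 900 to 1547 CPM against 121 to 894 CPM (ratio 0.79), and Eif6, a factor of ribosome assembly, at 228 to 334 CPM against 40.1 to 219 CPM (ratio 0.72), with gonad-derived oocyte 19 the lowest for both. These last were less than 2-fold apart in pooled level and yet did not overlap.

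Some genes of large ratio did overlap. Inpp4b, a phosphoinositide phosphatase, was at 1.56 to 36.5 CPM in iPSC-derived and 0 to 6.17 CPM in gonad-derived oocytes, a log2 ratio of 3.30. Naip6, a cytosolic sensor of bacterial proteins whose close copies make its level uncertain, ran from 0 to 63.2 CPM (median 3.01) against at most 0.817 CPM, a ratio of 3.76, or 3.31 without iPSC-derived oocyte 21. Mtfr2, a regulator of mitochondrial fission, was at 580 to 929 CPM (median 715) against 31.9 to 613 CPM (median 54.0), a ratio of 2.93. Gonad-derived oocyte 20, at 613 CPM, lay within the iPSC-derived range of Mtfr2, oocyte 21 was below it at 457 CPM, and the next was at 81.5 CPM. Pknox2, a homeobox transcription factor, was likewise at 7.83 to 20.2 CPM in iPSC-derived oocytes and at 16.0 and 9.35 CPM in gonad-derived oocytes 23 and 19, with the rest at most 1.45 CPM (ratio 2.91).

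Of the lower genes, Lyplal1, a lysophospholipase-like serine hydrolase at chr1:186087732-186117310, combined a large difference with a high level. It was at 18.8 to 63.3 CPM (median 25.9) over iPSC-derived and at 92.8 to 223 CPM (median 173) over gonad-derived oocytes, so the sets did not overlap. Pooled values were 28.7 CPM (95% interval 27.9 to 29.5) and 178 CPM (176 to 180), a log2 ratio of -2.61, and 6 dpp and in vivo FGOs were at 175 and 193 CPM. Sec16b, which organises the sites where vesicles leave the endoplasmic reticulum (ER), was at 0.703 to 7.86 CPM (median 3.65) against 12.7 to 46.0 CPM (median 28.8), a ratio of -2.73. Zswim1, a zinc finger protein, was at 15.3 to 67.6 CPM (median 43.9) against 130 to 271 CPM (median 189), a ratio of -2.05. Sirpa, the receptor for the CD47 signal, was at 0 to 2.29 CPM against 2.73 to 14.6 CPM, a ratio of -2.17. These were the 4 genes that were both 4-fold lower and free of overlap. Gpx6, a glutathione peroxidase, and Ttpal, a relative of the vitamin E transfer protein, were lower without overlap at ratios of -1.73 and -1.48.

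Other lower genes overlapped. Igsf21, an immunoglobulin family adhesion protein, had a ratio of -2.99, the lowest of those past 4-fold also in the ratio of medians and with any oocyte left out, from 0 to 7.54 CPM (median 0.598) against 0.145 to 39.9 CPM (median 5.34). Mpo, the myeloperoxidase of neutrophils, was at 0 to 2.40 CPM against 0 to 40.1 CPM, a ratio of -2.97. Of the blood markers tested, Cd68 was at 4.47 against 3.65 CPM and Pecam1 at 113 against 149 CPM, and the part of blood cell RNA in the Mpo value was not tested. Tmem51 and Slc16a5, a monocarboxylate transporter, had ratios of -2.84 and -2.56. For both of them the gonad-derived level was above that of the other sets: Tmem51 was at 2.65 CPM in iPSC-derived, 22.1 CPM in gonad-derived, 6.53 CPM in 6 dpp and 4.27 CPM in in vivo FGOs, and Slc16a5 at 3.10, 20.8, 3.66 and 2.28 CPM in that order. Myo10, a myosin that carries cargo to the tips of filopodia, was at 0.984 to 9.83 CPM (median 2.86) against 5.39 to 34.1 CPM (median 22.1), a ratio of -2.32. Malat1, an abundant nuclear RNA of somatic cells, was at 0.942 to 21.0 CPM against 2.56 to 67.3 CPM, a ratio of -2.23, and reached 106 CPM in 6 dpp FGOs. Ankrd33b had a ratio of -2.57, from 0 to 42.6 CPM against 0.127 to 146 CPM, and Aox4, an aldehyde oxidase with close copies, -2.62. The remaining gene named by the rule, 1700057H21Rik, had a ratio of -2.11.

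**Figure D2:**
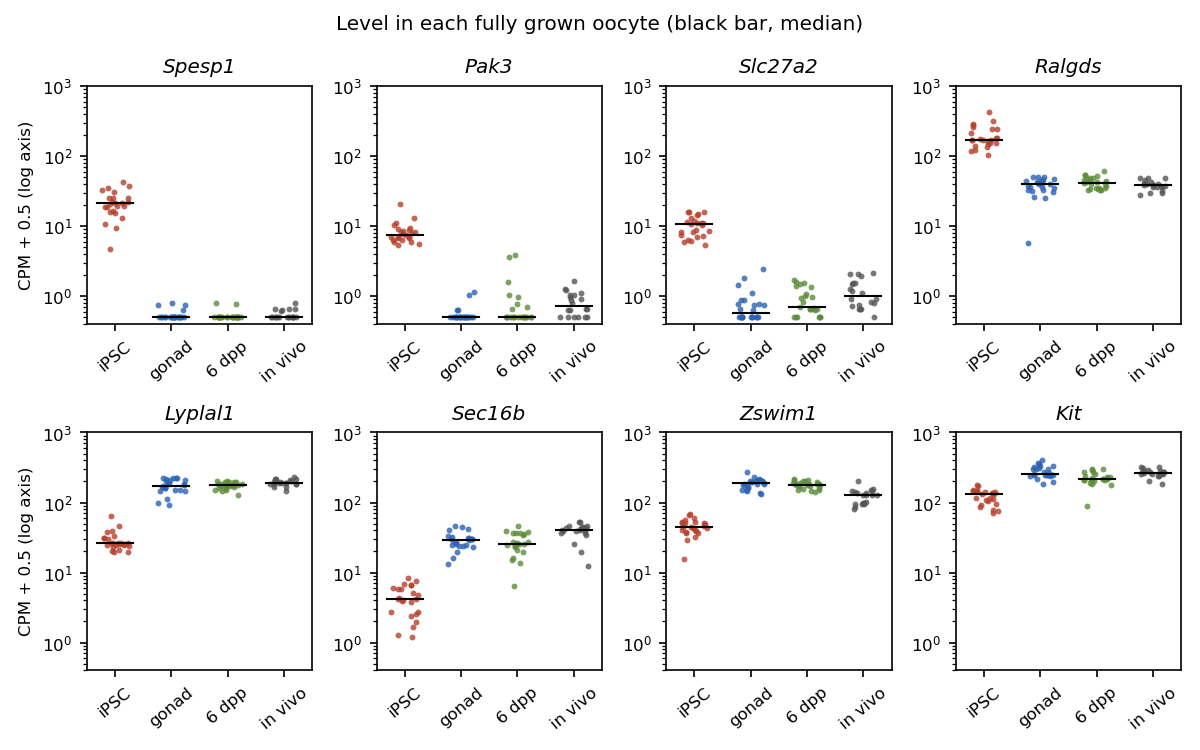
Each point is 1 FGO, plotted by source on the horizontal axis and by CPM + 0.5 on a logarithmic vertical axis, with the median of each source as a black bar. In the upper row the iPSC-derived oocytes lie above all gonad-derived ones (Ralgds, 104 to 426 against 5.18 to 50.4 CPM) and in the lower row below them (Lyplal1, 18.8 to 63.3 against 92.8 to 223 CPM), and the medians of 6 dpp and in vivo oocytes sit nearer to the gonad-derived than to the iPSC-derived medians in the 8 panels.

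Among the most counted transcripts, differences were small in ratio but large in reads. By difference in pooled CPM, the leading higher genes were Zbed3, a member of the subcortical maternal complex (14296 against 11856 CPM, log2 ratio 0.27), H1f8, the oocyte linker histone (8077 against 6499 CPM, 0.31), Elobl (4374 against 3404 CPM, 0.36), Ezhip, an oocyte inhibitor of the Polycomb enzyme EZH2 (3656 against 2699 CPM, 0.44), Uchl1, a ubiquitin hydrolase (5218 against 4286 CPM, 0.28), and Tcl1, a coactivator of AKT kinase (4531 against 3648 CPM, 0.31). All 6 overlapped between the sets. The leading lower gene was Gdf9, the oocyte growth factor, at 2913 to 8088 CPM (median 4988) over iPSC-derived and 5222 to 10783 CPM (median 7490) over gonad-derived oocytes. Its ratio was -0.63, and 6 dpp and in vivo FGOs were at 6318 and 9569 CPM. It was followed by Nlrp14 (3701 against 4943 CPM, -0.42) and Padi6 (3550 against 4714 CPM, -0.41), both needed by the early embryo, D10Wsu102e (1630 against 2462 CPM, -0.60), Slc45a3 (2143 against 2949 CPM, -0.46) and Zp2, a zona pellucida protein (1983 against 2770 CPM, -0.48). The in vivo levels of Nlrp14 and Padi6, 10114 and 9669 CPM, lay far above both cultured sets.

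The genes that define an oocyte differed little, with 1 exception. Of 15 oocyte markers 0 were 2-fold higher and 1 was 2-fold lower, beside 2.19% and 3.74% of all tested genes, with a list median of -0.07 beside -0.08 over all. That gene was Kit, the receptor of KITL, which granulosa cells make to drive oocyte growth. Kit was at 70.1 to 179 CPM (median 133) over iPSC-derived and 181 to 406 CPM (median 259) over gonad-derived oocytes, a ratio of -1.17 without overlap, and 6 dpp and in vivo FGOs were at 224 and 265 CPM. Bmp15, the partner ligand of GDF9, was at 3683 against 4130 CPM (ratio -0.16). The zona genes Zp1 and Zp3 had ratios of -0.52 and -0.02, beside -0.48 for Zp2, and the transcription factors Nobox and Figla 0.16 and -0.07. Apart from Kit, these values lie within 2-fold. Members of lists named here and below with ratios under 2-fold were chosen after their values were seen, as were Zfp42 and the Usp17l copies.

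Lists of maternal function held few members past 2-fold, and their counts and those of the lists after them are to be read against 2.19% of all tested genes higher and 3.74% lower. Of 14 genes of the subcortical maternal complex and other maternal-effect genes, 27 of meiotic arrest and resumption, 26 of maternal mRNA storage and decay, 21 of spindle and chromosome segregation and 19 of DNA methylation, 0 were 2-fold higher or lower. Their list medians were 0.00, -0.07, 0.09, 0.04 and -0.21. The DNA methyltransferase genes Dnmt1, Dnmt3a and Dnmt3l had ratios of -0.29, -0.30 and -0.30, Dnmt3b 0.39, and Zfp57, which protects imprints, 0.20. Of 36 Polycomb genes 0 were higher and 1 lower, a share near the background: Cbx7, a reader of the Polycomb mark, at 0.135 to 15.5 CPM against 6.90 to 44.9 CPM, a ratio of -1.76 with in vivo FGOs at 4.82 CPM. Of 24 genes of the piRNA and small RNA pathway 0 were higher and 1 lower, Piwil2, at -1.18, and the list median was -0.26. Of 40 imprinted genes 2 were higher, Gab1 (2.32) and Zrsr1 (1.35), and 3 lower, Slc22a18 (-1.59), Cd81 (-1.26) and Slc22a2 (-1.23). The Gab1 ratio was 1.63 without iPSC-derived oocyte 13, which alone held 81.5 CPM. Several of these Polycomb and imprinted members are low, and the list medians were -0.07 and 0.02.

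**Figure D3:**
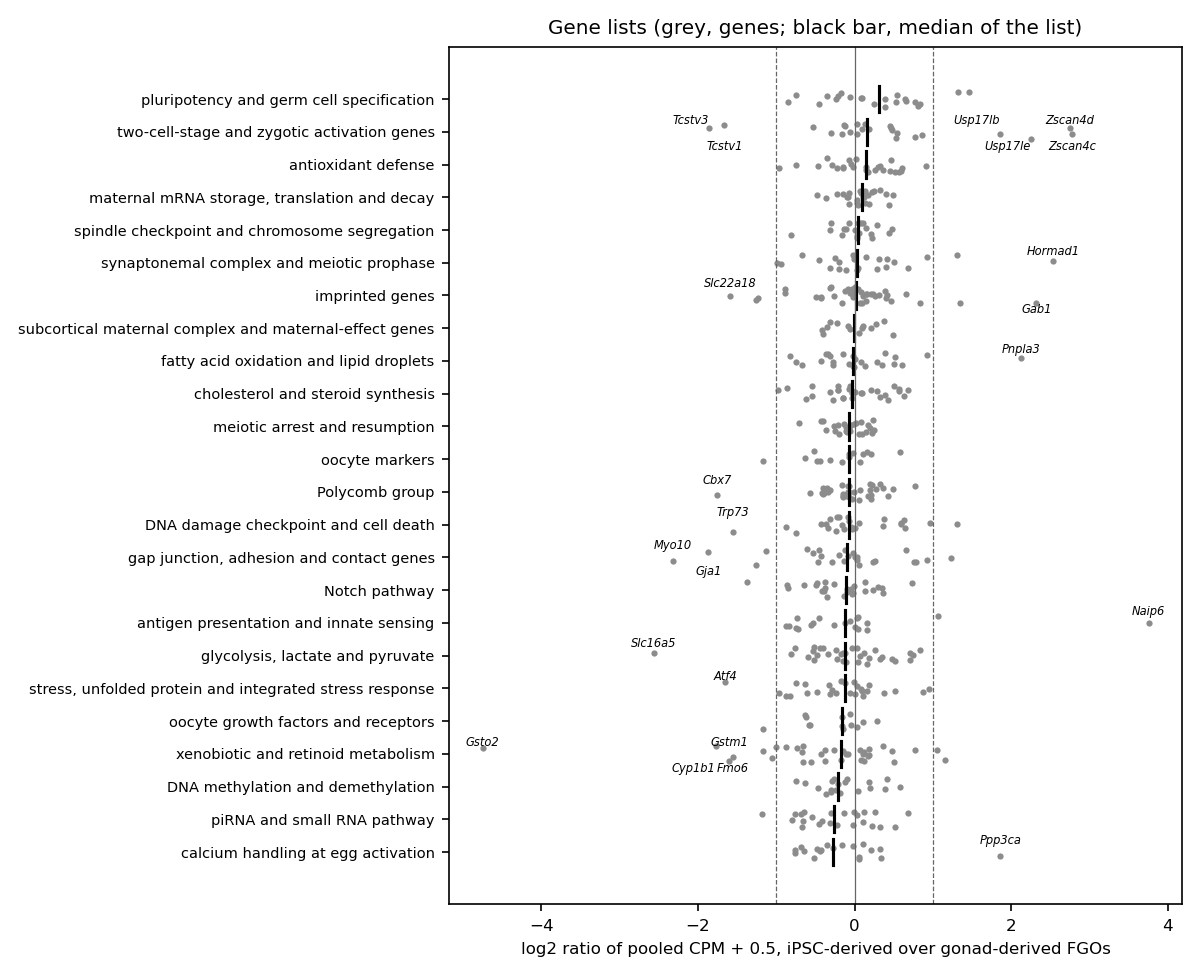
Grey points are the tested genes of each of 24 gene lists, placed by the log2 ratio of pooled CPM + 0.5 in iPSC-derived over gonad-derived FGOs, black bars are list medians and dashed lines mark 2-fold. List medians run from -0.27 for calcium handling to 0.32 for pluripotency and germ cell specification, and few members lie outside 2-fold.

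Genes of the preceding germ cell stages were read next. Of 22 pluripotency and germ cell specification genes 2 were 2-fold higher, Klf4 (8.89 against 3.28 CPM, ratio 1.31) and Zfp42 (1.55 against 0.246 CPM, 1.46), and 0 were lower, beside 2.19% higher and 3.74% lower of all tested genes. The list median was 0.32, the highest of the lists drawn in the plot of gene lists. The endogenous genes behind the 2 reporters of the line belong here: Prdm1 was at 48.6 to 178 CPM against 39.1 to 87.7 CPM (ratio 0.84), and Dppa3 at 1135 to 3075 CPM against 1002 to 2209 CPM (0.58). Whether transgene reads entered these counts was not tested. Pou5f1 had a ratio of 0.25, from 175 against 147 CPM.

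Of 23 genes of the synaptonemal complex and meiotic prophase 2 were 2-fold higher and 0 lower, again beside 2.19% and 3.74%. Hormad1, a protein of the meiotic chromosome axis, was at 3.57 to 24.9 CPM (median 16.1) against 0.880 to 5.03 CPM (median 2.08), a log2 ratio of 2.54 with an overlap between few oocytes. Sycp3, a component of the lateral element, was at 11.3 to 426 CPM (median 99.1) against 15.8 to 109 CPM (median 31.0), a ratio of 1.30. The meiotic genes did not share 1 direction. Dmc1, the meiotic recombinase, and Tex15 had ratios of -0.94 and -0.98. Outside the list, Mnd1, a partner of the recombinase, was higher without overlap, at 24.1 to 41.8 CPM against 4.46 to 24.0 CPM (0.91). Ccnb1ip1, a crossover factor also outside the list, had a ratio of 2.26 from 4.59 to 70.5 CPM against 0.422 to 11.2 CPM. Dmc1, Tex15, Mnd1 and Ccnb1ip1 were chosen after their values were seen.

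Genes of the 2-cell embryo went both ways. Of 24 tested, 4 were 2-fold higher and 2 were lower, where 2.19% and 3.74% of all tested genes were, and the list median was 0.16. The higher ones were Zscan4c and Zscan4d, transcription factors of the 2-cell stage, and the ubiquitin peptidase copies Usp17le and Usp17lb, with ratios of 2.78, 2.75, 2.25 and 1.85. These pooled values rest on few oocytes: Zscan4d was at 181 CPM in iPSC-derived oocyte 14 and 50.4 CPM in oocyte 24, the group medians were 3.88 and 1.26 CPM, and without oocyte 14 its ratio was 1.97. With 1 oocyte left out the lowest ratios of Zscan4c and Usp17le were 1.98 and 1.85. Their ratios of median CPM were 0.67 and 0.65. The lower ones, Tcstv1 and Tcstv3, did not rest on single oocytes. Tcstv1 was at 14.6 to 57.1 CPM (median 34.2) against 45.4 to 188 CPM (median 105), a ratio of -1.66, and Tcstv3 had a ratio of -1.86. All 6 belong to families of near-identical copies, so the levels are uncertain.

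Of 26 gap junction, adhesion and contact genes, which join the oocyte to its follicle cells, 1 was 2-fold higher (Dsc3, at 1.23) and 4 were lower, beside 2.19% and 3.74% of all tested genes, with a list median of -0.10. The lower ones were Myo10 (-2.32), Gja1 (-1.87), the tetraspanin Cd81 (-1.26) and the integrin subunit Itgb3 (-1.13). Gja1, the connexin of granulosa cells, is also a granulosa marker, and it ran from 0 to 8.64 CPM (median 1.04) against 0 to 44.9 CPM (median 2.90), with 60.0 CPM in 6 dpp and 30.6 CPM in in vivo FGOs. No other granulosa marker was 2-fold apart, and the marker sums given above overlapped. The part of carried-over follicle cell RNA in the Gja1 value was not tested. Of 26 Notch pathway genes 0 were higher and 1 lower, the ligand Dll1 at -1.37, and of 13 growth factor and receptor genes only Kit was lower.

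Of 27 genes of the stress and unfolded protein response 0 were 2-fold higher and 1 lower, near the 2.19% and 3.74% of all tested genes. This was Atf4, the transcription factor of the integrated stress response, at 51.3 to 293 CPM (median 137) against 202 to 629 CPM (median 475), a log2 ratio of -1.65 with overlap, and 6 dpp and in vivo FGOs were at 328 and 416 CPM. The next largest member was Hspa5, the main ER chaperone, at 29.4 to 355 CPM (median 118) against 130 to 417 CPM (median 248), a ratio of -0.97. Other members went the opposite way, up to a ratio of 0.95. The list median was -0.12 beside -0.08 over all tested genes, and 0.03 over its 15 members of at least 10 CPM. A further 3 genes outside the list, chosen after their values were seen, were among the 25 lower without overlap (0.184% of all tested genes). Of the list itself 0 genes were without overlap. Mbtps1, the protease that releases SREBP and ATF6, was at 14.5 to 54.6 CPM against 55.4 to 133 CPM (-1.23). Stt3b, a catalytic subunit of N-glycosylation, was at 256 to 379 CPM against 431 to 608 CPM (-0.65). Arcn1, a subunit of the COPI vesicle coat, was at 316 to 501 CPM against 530 to 767 CPM (-0.51).

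The lists of energy, lipid, antioxidant and calcium genes held at most 1 member past 2-fold each, beside 2.19% of all tested genes higher and 3.74% lower. Of 25 genes of fatty acid oxidation and lipid droplets 1 was 2-fold higher, Pnpla3, described below, and 0 were lower, and Plin2, a droplet coat protein, had a ratio of 0.93. Of 34 genes of glycolysis, lactate and pyruvate 0 were higher and 1 lower, the transporter gene Slc16a5, and of 30 genes of cholesterol and steroid synthesis 0 were 2-fold apart. Of 26 antioxidant genes 0 were 2-fold apart, with a median of 0.15. Pdha2, a subunit of pyruvate dehydrogenase usually found in testis and chosen after its values were seen, was at 7.55 to 63.9 CPM against 1.01 to 12.2 CPM, a ratio of 2.21. In calcium handling at egg activation, 1 of 19 genes was higher, Ppp3ca, the catalytic subunit of calcineurin, at 12.7 to 69.3 CPM (median 41.6) against 3.54 to 18.8 CPM (median 10.5), a ratio of 1.86, and 0 were lower, with a list median of -0.27.

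Of 35 genes of xenobiotic and retinoid metabolism 2 were 2-fold higher, Adh1 (1.15) and Rxra (1.06), and 6 were lower, Gsto2 (-4.75), Cyp1b1 (-1.77), Gstm1 (-1.60), Fmo6 (-1.55), Rarres2 (-1.16) and Dhrs3 (-1.05), beside 2.19% higher and 3.74% lower of all tested genes. Some of these rested on few gonad-derived oocytes. The ratio of Rarres2 was -0.51 without gonad-derived oocyte 18, and the ratio of median CPM was 0.52 for Fmo6. Dhrs3, a retinal reductase, did not: it was at 9.98 to 76.4 CPM (median 36.8) against 7.76 to 145 CPM (median 84.1). Of 26 genes of DNA damage and cell death, Pmaip1 was higher (1.31) and Trp73, a relative of p53, lower (-1.55). Of 19 genes of antigen presentation and innate sensing 2 were higher, Naip6 and H2-K1 (1.07). Of 29 genes that the study's text names, 4 were higher and 3 lower, with a median of -0.03. The study picked them on its own samples, in part growing oocytes or earlier germ cells, so they are not independent evidence of direction.

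Some genes divided the gonad-derived oocytes among themselves. A gene was called split where its oocytes fell into separate sets of at least 4 oocytes with an empty gap of at least 4-fold in CPM + 0.5 between them. There were 18 such genes among gonad-derived FGOs and 0 among iPSC-derived FGOs, beside 1 in 6 dpp and 0 in in vivo FGOs. For all 18 every 6 dpp and in vivo FGO lay below the upper set. The upper sets were made of few oocytes: their 99 places were taken by 8 oocytes, and 92 of the places by oocytes 17 to 23. Oocytes 17, 18 and 22 were in the upper set of all 18 genes, oocytes 20, 21 and 23 of 10 each, oocyte 19 of 8 and oocyte 10 of 7. The labels do not say what the oocyte numbers stand for.

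For 8 of the 18 genes every iPSC-derived oocyte lay above the lower set. Bfsp1 encodes filensin, a filament protein of the lens, at chr2:143826528-143915219. It was at 129 to 492 CPM (median 227) in iPSC-derived oocytes and at 88.7 to 245 CPM in gonad-derived oocytes 10, 17, 18, 21 and 22, while the other 19 were at most 0.290 CPM. Pnpla3, a lipid droplet hydrolase at chr15:84167776-84189521, was at 321 to 805 CPM (median 630) in iPSC-derived oocytes, at 561 to 1005 CPM in gonad-derived oocytes 10, 17, 18, 19 and 22, and at most 6.19 CPM in the rest. The 6 dpp and in vivo FGOs were at 4.16 and 4.51 CPM for Pnpla3 and at 0.0879 and 0.0207 CPM for Bfsp1. The 2 genes were thus at high level together in oocytes 10, 17, 18 and 22 and apart in oocytes 19 and 21. The others of the 8 were Alyref2, an mRNA export adapter, Defb48, Fam124a, Kctd21, A930015D03Rik and Prr15l, and Kctd21 was also below the upper set in every iPSC-derived oocyte.

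For 9 other split genes every iPSC-derived oocyte lay below the upper set, and for 1, Pxdn, they lay on both sides. Gsto2, an omega-class glutathione transferase, was at most 0.487 CPM in iPSC-derived oocytes. In gonad-derived oocytes 17 to 23 it was at 24.3 to 87.5 CPM, and at most 0.669 CPM in the other 17. Its pooled ratio of -4.75, the lowest of all tested genes, came from those 7 oocytes. Thrsp, a regulator of lipid synthesis, and Cst9, a cystatin, were at most 0.542 and at 0 CPM in iPSC-derived oocytes and at 12.8 to 24.0 CPM and 4.13 to 16.1 CPM in the upper sets. Outside the split criterion, and chosen after their values were seen, Arhgef15 had 0 reads in iPSC-derived and 854 in gonad-derived oocytes, at least 291-fold lower against the floor, and Slc39a8, a zinc and manganese importer, was at 322, 261 and 18.5 CPM in gonad-derived oocytes 17, 22 and 18. Trim29 and Fermt3 rested on other oocytes, gonad-derived 1 and 3, with 224 and 43.3 CPM for Trim29 and 112 and 29.6 CPM for Fermt3. Without oocytes 17 to 23 there were 84 genes 4-fold higher and 42 lower in place of 57 and 36. There were 84 genes above and 111 below without overlap, in place of 38 and 25. These last counts cannot fall when oocytes are left out, and no other 7 oocytes were left out beside them.

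**Figure D4:**
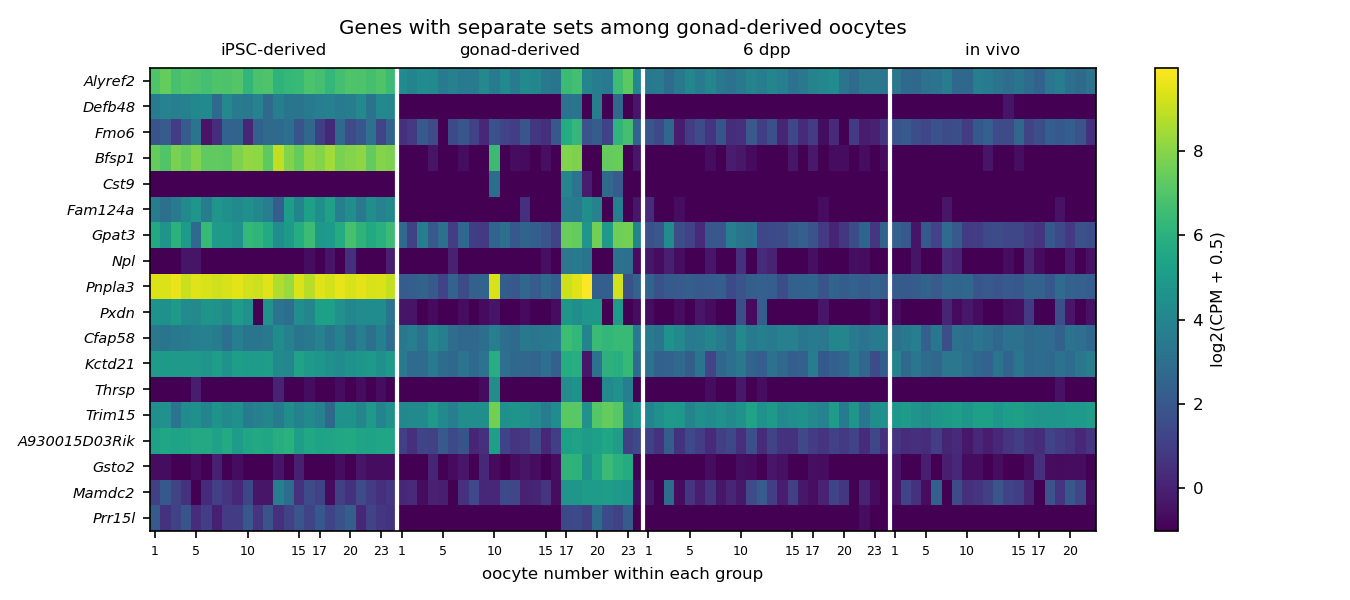
Rows are the 18 genes with separate sets among gonad-derived FGOs and columns are single FGOs by source and oocyte number, with colour giving log2(CPM + 0.5). High levels among gonad-derived oocytes sit in oocytes 10 and 17 to 23, no iPSC-derived row divides by the same criterion, and the upper level is not reached by any 6 dpp or in vivo oocyte.

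Growing oocytes of both sources are separate oocytes, and they were read for the same genes at the earlier stage. Of the 57 genes 4-fold higher in FGOs, 53 passed the same filter in GROs, 40 were 2-fold or more higher in iPSC-derived than gonad-derived GROs, 24 were 4-fold or more higher and 0 were 2-fold lower. Of the 36 lower genes 21 were 2-fold or more lower in GROs, 11 were 4-fold or more lower and 1 was 2-fold higher. Among all 12916 tested genes with a GRO value 246 were 2-fold higher and 233 lower, and 43 were 4-fold higher and 30 lower. In GROs the log2 ratio was 5.78 for Spesp1, 5.31 for Manba, 4.19 for Slc27a2, 3.50 for Ralgds and -2.55 for Lyplal1. Other differences were seen at the later stage. Sec16b had a ratio of -0.46 in GROs, where both sets were low at 3.50 and 5.02 CPM, and -2.73 in FGOs. Kit had -0.22 in GROs and -1.17 in FGOs, Gdf9 0.01 and -0.63, and Hspa5 0.00 and -0.97. Of the 18 split genes 10 were also split among gonad-derived GROs, where more oocytes were in the upper set: 16 of 24 for Pnpla3 and 8 of 24 for Bfsp1.

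**Figure D5:**
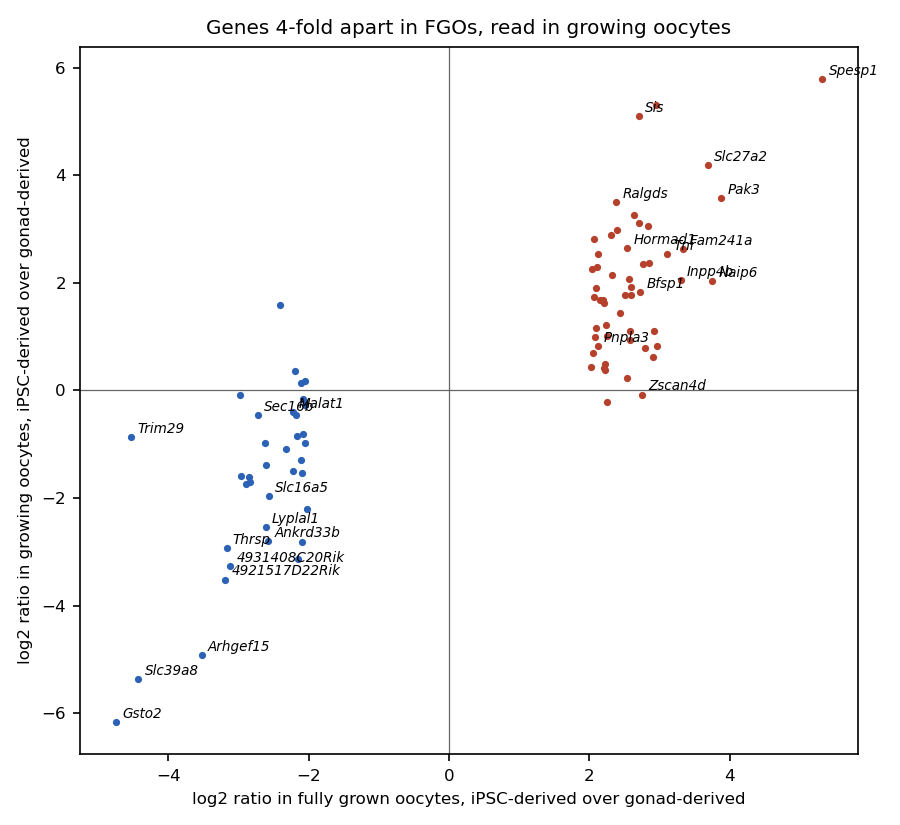
Each point is a gene that was 4-fold higher (red) or lower (blue) in iPSC-derived than gonad-derived FGOs and passed the filter in GROs, with its log2 ratio in FGOs on the horizontal axis and in GROs on the vertical axis. In GROs 40 of the red points are 2-fold or more higher and 21 of the blue points 2-fold or more lower; Spesp1 and Gsto2 are the extremes at both stages.

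The 6 dpp and in vivo FGOs were set beside both levels as a reference. Of the 57 higher genes 47 had an in vivo level within 2-fold of the gonad-derived level and 2 within 2-fold of the iPSC-derived level. Of the 36 lower genes the count was 17 for each. Nearness was also counted, which has a share over all genes. The in vivo level was nearer to the iPSC-derived than to the gonad-derived level for 2 of the 57 higher genes (3.51%). It was nearer for 18 of the 36 lower genes (50%), and for 33.5% of all tested genes. For the 6 dpp level these were 1 of 57 (1.75%), 16 of 36 (44.4%) and 32.6%. Of the 38 genes without overlap above, 0 were nearer to the iPSC-derived level in either reference, and of the 25 below, 2 were in the in vivo and 1 in the 6 dpp reference. The 1377 genes that were 2-fold or more higher in FGOs than GROs grown in vivo had a median ratio of -0.20, with 10.3% of them 2-fold lower and 3.63% higher in iPSC-derived FGOs. The 1681 that were 2-fold or more lower in FGOs than GROs had a median of -0.15 with 5.12% lower, and the 10524 in between -0.06 with 2.66% lower.

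Differences were spread over the chromosomes. Over genes of at least 10 CPM the chromosome medians ran from -0.07 for chromosome 15 to 0.04 for the X, and the share of reads on the X was 2.80 to 3.22% (median 2.99%) in iPSC-derived and 2.42 to 3.03% (median 2.78%) in gonad-derived oocytes, with medians of 2.93% in 6 dpp and 2.85% in in vivo FGOs. Chromosomes 3, 7 and 8 each held 7 of the 57 higher genes and chromosome 15 held 6, which were 1.08%, 0.694%, 0.963% and 1.07% of their tested genes beside 0.42% of all. Chromosomes 4, 5, 16 and 19 held 0 of the higher genes. Of the 36 lower genes chromosomes 1 and 2 each held 6, or 0.740% and 0.574% of their tested genes beside 0.265% of all. Chromosome 5 held no gene 4-fold apart in either direction among 882 tested. Spread between oocytes was measured over 6777 genes of at least 10 CPM in both sets. The median SD of log2(CPM + 1) was 0.287 in iPSC-derived and 0.345 in gonad-derived oocytes, and 0.258 in the latter without oocyte 19. The SD was larger in the gonad-derived set for 64.2% of genes with that oocyte and for 36.5% without it, so the direction depended on 1 oocyte. The iPSC-derived oocytes 13 and 14, which also stood apart, were kept in both, so these shares do not show which set was the more uniform.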

How the data were processed

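Counts per gene were deposited by the authors as 1 table of whole reads for single oocytes, and all of its sample columns were used (0 were left out). Per the methods reads were aligned with STAR to the mouse genome (GRCm38/mm10 in the submitters' processing notes) with multimapping reads placed at random, and uniquely assigned exonic reads were counted on 1 transcript per gene. The use of strand is not stated, so reads of overlapping antisense genes may be misassigned. Reads that fit several near-identical copies were not counted, so such genes may be undercounted. No size selection of oocytes was applied here.

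Reads were summed over the 24 oocytes of each group and divided by the summed totals (pooled CPM). Since no animal or culture was labelled, no test was run, and oocytes were described by lowest, median and highest CPM. Genes needed a CPM above 1 in at least 3 of 92 FGOs. The members and gene lists were chosen with earlier results of these data known, as were the rules below. Of 29 lists, 24 are drawn, and the cumulus and theca marker lists summed to at most 3.66 and 7.67 CPM per oocyte. Genes were named where they were among the 12 of largest ratio in a direction with at least 5 CPM in the higher group that were past 4-fold in pooled CPM, in median CPM and with any oocyte left out, among the 6 of largest difference in CPM, among the 6 of largest ratio without overlap, or up to 4 list members past 2-fold in a direction, otherwise the most abundant, or where the study's text names them. Split genes named here were named for that pattern, and for xenobiotic and retinoid metabolism every 2-fold lower gene was named. Further names were chosen later, and the text says so for many of them. Alternatives were other pseudocounts, scalings, filters and summaries, thinning to 2 M reads, and each oocyte left out. Leaving out gonad-derived oocytes 17 to 23, or the 3 oocytes farthest from their groups, was chosen after seeing the data. Scripts were tested on simulated data. Python 3.11.15, numpy 2.4.6, pandas 2.3.3, scipy 1.17.1, matplotlib 3.10.9, R 4.3.3, edgeR 4.0.16 and DESeq2 1.42.0 were used, edgeR and DESeq2 for scalings and a fitted coefficient without its p-values.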

Additional observations from a re-analysis of the deposited data

How the results depend on the processing

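With a pseudocount of 0.1 CPM 110 genes were 4-fold higher, 98 4-fold lower, 469 2-fold higher and 934 2-fold lower. With 2 CPM these were 22, 11, 159 and 230, and with the coefficient of an edgeR fit 174, 169, 595 and 1043. With each oocyte thinned to 2 M reads 22 genes lay above without overlap. Without gonad-derived oocytes 17 to 23, 84 lay above and 111 below, and without gonad-derived oocyte 19 and iPSC-derived oocytes 13 and 14, 50 lay below. With each oocyte left out in turn the 4-fold counts ran from 52 to 64 higher and 32 to 41 lower, and the 2-fold counts from 276 to 319 and 492 to 539. Those without overlap ran from 38 to 45 above and 25 to 44 below, with 44 reached without gonad-derived oocyte 19. Since leaving out oocytes cannot lower a count without overlap, its lowest values were fixed in advance. Scaling by edgeR's TMM moved the median of all genes from -0.08 to -0.04. Of 10123 values of 166 named genes under alternatives, 10057 stayed within the spread between oocytes, 58 moved further and 8 turned sign. The ratio of medians turned Fmo6 to 0.52, Mamdc2 to 0.33 and Slc39a8 to 0.17, and leaving out gonad-derived oocytes 17 to 23 turned Cfap58 to 0.17, Fmo6 to 0.76, Mamdc2 to 0.91, Npl to 0.13 and Slc39a8 to 0.68. The upper sets of Mamdc2, Cfap58, Npl and Fmo6 lay among oocytes 17 to 23. No paired analysis was possible because no test was run and the labels do not say that oocytes of the same number belong together. Genes under about 1 CPM are limited by depth.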
